A study of Mus musculus with 10 samples.

Results

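Proteins leave the endoplasmic reticulum (ER) in vesicles coated by COPII, return from the Golgi in vesicles coated by COPI, and are sorted for their final destinations at the trans-Golgi network. The mRNAs of 54 proteins of this traffic were followed: coat subunits and their GTPases, golgins and stacking proteins, cargo receptors, SNAREs (the proteins that fuse vesicles with their target) and trans-Golgi sorting adaptors. They were taken by gene symbol from a table of 55416 genes, and 54 of the 54 passed the filter on low counts, as 54 of the 20550 genes tested. The set was proposed when the recovery of these mRNAs with Musashi antibodies was already known, with Tgoln1, among the most enriched mRNAs of the whole table, at its head. The values of Musashi IP against IgG are therefore a description of a set chosen by them, and nothing is tested or supported with them.

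The related proteins Musashi1 and Musashi2 bind RNA. They attach to short sequences, mostly in 3' untranslated regions (3' UTRs), and change how the mRNA is translated. The study sequenced the RNA that came down from mouse pituitary lysates with both Musashi antibodies pooled (Musashi IP) and, from the other portion of each lysate, with control rabbit IgG. All groups were control mice of the sighted FVB strain FVB.129P2‐Pde6b+Tyrc‐ch/Ant, aged 8 to 10 weeks, with no transgene or treatment named in the labels. Each lysate pooled 6 pituitaries, so the spread between lysates is that of pools and not of single mice. Female lysates were 2, 5 and 6 and male lysates 3 and 7, which gave 10 libraries, 5 per antibody. The immunoprecipitations were made on separate occasions, and 1 more male pair that the protocol mentions was not analysed here. The antibodies were pooled, so binding by Musashi1 and by Musashi2 cannot be told apart, and whole glands were lysed, so the cell type that each mRNA came from is not known.

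The pituitary makes and stores large amounts of peptide hormone, and hormone precursors pass through the same ER and Golgi steps as other secreted proteins. The GTPase SAR1 starts the COPII coat, which SEC23, SEC24, SEC13 and SEC31 then build. ARF GTPases recruit COPI as a complete complex of 7 subunits and also recruit the adaptors AP-1, AP-3 and GGA at the trans-Golgi network. KDEL receptors and the lectins LMAN1 and LMAN2 bind cargo in the lumen, golgins tether vesicles, and SNAREs such as GOSR1, GOSR2, SEC22B and BET1 carry out fusion.

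Musashi proteins recognise G or A, then 1 to 3 U, then AGU. The sequences below are 30 bases of mouse 3' UTR, 5' to 3' on the strand of the mRNA with T for U, and the capitals mark matches to that motif. They were read from GENCODE M21 transcripts. Their positions are GRCm38, not the GRCm39 build named for the counts. The first 3 come from the members with the highest recovery that hold a match, and Sec22b is shown because it has the most matches among the SNAREs. Ap1s2, Sec24a and Sec23a are shown because they hold the most matches among the members that were not enriched.
Tgoln1: ctggtccatctgATAGTctgtatatttctc
Arf3: ctactctgcctcATTAGTagcccactcacg
Gosr2: aacagttctaaATTTAGTagcctcctagta
Sec22b: actcaacaatGTAGTTAGTtaaatttatta
Ap1s2: atcttctcagATTAGTAGTaagtacagtgc
Sec24a: GTTAGTatttttaggttctttcttcATAGT
Sec23a: aggaacaaatcaATAGTgatgatatatggc

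These lie within exonic 3' UTR at chr6:72611592-72611621 (minus strand) for Tgoln1, chr15:98739533-98739562 (minus) for Arf3 and chr11:103678103-103678132 (minus) for Gosr2. The others lie at chr3:97922465-97922494 (plus) for Sec22b, chrX:163927773-163927802 (plus) for Ap1s2, chr11:51693295-51693324 (minus) for Sec24a and chr12:58959591-58959620 (minus) for Sec23a. Sec22b has 2 overlapping matches in its window and Ap1s2 also has 2. At least 1 match was present in the 3' UTR of 38 of the 54 members (70.4%), and in 66.9% of 14080 protein-coding genes tested, of any 3' UTR length. Only the strand of the mRNA was searched, overlapping matches were each counted, and a match describes the letters only.

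The libraries held between 6.67 and 13.0 M counts each, and a single count was worth at most 0.150 CPM (counts scaled by library size) before TMM factors. The CPM values of genes are given after TMM factors. The lysates carried the RNA of anterior pituitary, with summed hormone mRNAs of 13021 to 51460 CPM in IgG, although Lhb did not pass the low-count filter. IgG 2 stood apart from the other IgG libraries: its summed levels were 386 CPM for 8 endothelial markers (88.3 to 159 in the others), 1212 for 7 blood and immune markers (391 to 619) and 1291 for 8 fibroblast and mural markers (291 to 661). IgG 2 was also highest for the summed hormone mRNAs (51460 CPM, 13021 to 23136 in the others). The same held for the pituitary identity factors (562, 453 to 501) and the pituicyte markers (153, 89.0 to 118). Lysate 6 stood apart by recovery, with the highest ratio of Musashi IP to IgG for 35 of the 54 members. Of the blood and immune markers 5 of 7 were lower in Musashi IP, and of the endothelial and the fibroblast and mural markers 0 passed the test in either direction (edgeR). The part of these markers in the members' recovery was not tested.

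Recovery was uneven across the set. A gene was called when its adjusted p was under 0.05 (edgeR's quasi-likelihood test with the lysate as a block, Benjamini-Hochberg over all 20550 genes). By that rule 26 of the 54 members were higher in Musashi IP and 2 were lower, while 18.5% of all genes tested were higher and 8.40% lower. The members are all protein-coding, and of 14202 protein-coding genes tested 3656 (25.7%) were higher and 569 lower. The members' median log2 fold change was 0.30, against -0.07 over all genes and 0.09 over protein-coding genes. There were 14 of the 54 members at 2-fold or more, beside 1476 of all 20550 genes and 1397 of 14202 protein-coding genes. The ratio was above 0 in 5 of 5 lysates for 28 members (22.4% of all genes) and below 0 in 5 of 5 for 8 (18.6% of all genes). Of the 14202 protein-coding genes, 4410 were above 0 in 5 of 5 and 1805 below. All 5 Musashi IP libraries lay above all 5 IgG libraries for 13 members (9.69% of all genes), and the reverse held for Copb1 and Sec23a (1.98% of all genes). Among the 14202 protein-coding genes these numbers were 1931 and 192.

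The calls fell differently by role. All 5 ARF GTPases and all 5 cargo receptors were called higher, with median log2 fold changes of 1.52 and 1.12. The SNAREs had 3 of 4 higher (median 1.56). Golgins and stacking proteins had 4 of 9 (0.34) and trans-Golgi sorting proteins 5 of 11 (0.18). The structural coats had the fewest: COPII with its GTPases had 2 higher and 1 lower of 11 (-0.08), and COPI had 2 higher and 1 lower of 9 (0.02). Of all genes tested 18.5% were higher and 8.40% lower, and of protein-coding genes 25.7% were higher. The counts of higher coat mRNAs lie near these shares. The roles divide a set that was chosen by its recovery, and the differences between roles were not tested.

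**Figure D1:**
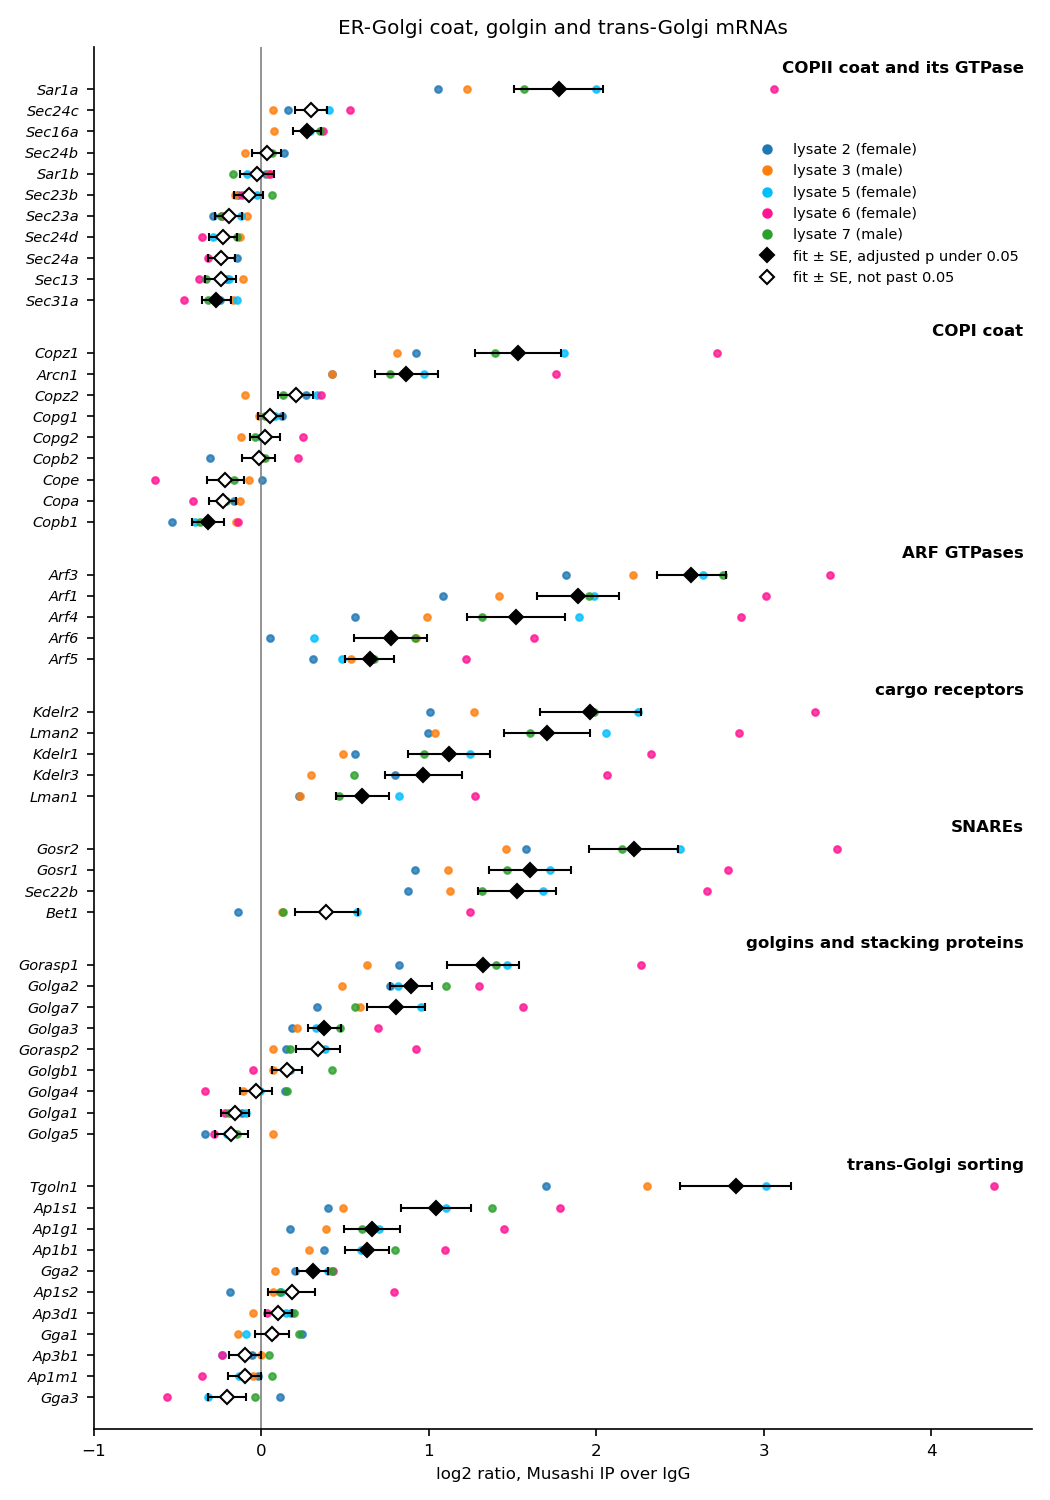
Log2 ratio of Musashi IP over IgG (x axis) for each of the 54 members, grouped by role. Coloured points are the 5 lysates and diamonds the fitted value ± SE, filled where the call passed. ARF GTPases and cargo receptors lie to the right of 0, while most COPII and COPI subunits lie near 0, and lysate 6 holds the rightmost point of 35 members.

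Tgoln1 encodes a membrane protein that cycles between the trans-Golgi network and the cell surface. It stood at 149, 78.0, 84.7, 69.5 and 93.7 CPM in the IgG libraries of lysates 2, 3, 5, 6 and 7, an order kept for all values below. In Musashi IP it stood at 484, 386, 686, 1442 and 665 CPM. Every Musashi IP library exceeded every IgG library, and the fitted log2 fold change was 2.83 ± 0.33 (SE, n = 5 lysates), or 7.11-fold. Its single-lysate ratios ran from 1.70 in lysate 2 to 4.37 in lysate 6. Tgoln2 was not analysed here. The other trans-Golgi members stayed far below Tgoln1.

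AP-1 is the adaptor that joins clathrin to cargo at the trans-Golgi network, and its subunits differed. Ap1s1, its small sigma subunit, was higher at 1.04 ± 0.21, from 14.1 ± 5.55 to 29.6 ± 13.1 CPM (mean ± SD, n = 5). The paralogue Ap1s2 did not pass (0.18 ± 0.14), with 49.3, 77.3, 62.8, 47.6 and 104 CPM in IgG and 43.2, 81.0, 68.3, 82.4 and 113 in Musashi IP, and it was lower in lysate 2. The ratio of Ap1s1 exceeded that of Ap1s2 in 5 of 5 lysates, by 0.85 ± 0.34 on the log2 scale (SD). The large subunits Ap1g1 (0.66 ± 0.17) and Ap1b1 (0.63 ± 0.13) were higher, and the medium subunit Ap1m1 was not (-0.10 ± 0.10). Ap1g1 lost its call without lysate 7 (log2 0.61).

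The GGA proteins sort mannose 6-phosphate receptors, and AP-3 sorts cargo towards lysosome-related organelles. Gga2 was called higher at 0.31 ± 0.09, but lost the call without lysate 2 (0.33), 3 (0.27), 5 (0.34) or 7 (0.21), without the lysate block, with sex in the model (0.31) or not (0.31), and with the correction for length and GC (0.05). Gga1 (0.06 ± 0.10) and Gga3 (-0.20 ± 0.11) did not pass. Of the AP-3 subunits in the set, neither Ap3d1 (0.10 ± 0.08) nor Ap3b1 (-0.10 ± 0.09) passed. Ap3s2 (1.60 ± 0.21) and Ap3m2 (1.50 ± 0.22), AP-3 subunits outside the set, were called higher.

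ARF GTPases are small proteins that, once loaded with GTP, bring coats and adaptors to Golgi membranes. Arf3 went from 98.0, 68.8, 58.5, 62.6 and 54.0 CPM in IgG to 347, 321, 365, 659 and 366 CPM in Musashi IP. Its lowest Musashi IP library was above its highest IgG library, the log2 fold change was 2.57 ± 0.21, and Musashi IP 6 stood far above the rest. Arf1, the ARF that recruits COPI, stood at 137, 65.4, 80.5, 75.6 and 75.6 CPM in IgG. In Musashi IP it stood at 289.9, 175, 319, 612 and 294 CPM (1.89 ± 0.24), also without overlap. Arf1 shares 10.5% of its 50-base words with another annotated gene, so part of its counts could belong to that copy. Arf4 was higher at 1.52 ± 0.29, although its highest IgG library (121 CPM, lysate 2) lay above its lowest Musashi IP library (116, lysate 3).

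Arf5 and Arf6, which works mostly at the plasma membrane, were the ARFs recovered least. Arf6 was at 0.77 ± 0.22, with 19.3, 8.40, 13.7, 11.0 and 12.5 CPM in IgG and 20.1, 16.1, 17.0, 34.2 and 23.8 in Musashi IP, and its groups overlapped. Arf5 was at 0.65 ± 0.15, from 17.9 ± 7.94 to 27.7 ± 9.34 CPM, with overlap. The ratio of Arf3 exceeded that of Arf5 in 5 of 5 lysates, by 1.92 ± 0.30 (SD), and that of Arf1 in 5 of 5, by 0.67 ± 0.18. Arf6 lost its call without lysate 3 (0.64) or 7 (0.66), and Arf5 lost its call without lysate 7 (0.57). Both lost it with neither lysate nor sex in the model (0.78 and 0.62). With sex in place of the lysate, a setting added after the data were seen, Arf5 lost it (0.62) and Arf6 kept it (0.79).

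KDEL receptors bring escaped ER chaperones back from the Golgi. Kdelr2 had 74.3, 31.0, 42.5, 41.3 and 32.1 CPM in IgG and 149, 75.2, 203, 409 and 128 CPM in Musashi IP. The groups did not overlap, by a narrow margin, since IgG 2 was at 74.3 CPM and Musashi IP 3 at 75.2. Its log2 fold change was 1.96 ± 0.30. Kdelr1 (1.12 ± 0.25) and Kdelr3 (0.97 ± 0.23) were also higher, each with overlapping groups. Kdelr3 went from 20.6, 12.5, 22.7, 21.8 and 15.3 CPM in IgG to 35.9, 15.4, 44.6, 91.7 and 22.5 in Musashi IP, and lost its call with neither lysate nor sex in the model (1.18) but kept it with sex in place of the lysate (1.04). The ratio of Kdelr2 exceeded that of Kdelr1 in 5 of 5 lysates, by 0.85 ± 0.24, and that of Kdelr3 in 5 of 5, by 1.03 ± 0.49 (SD). Kdelr3 overlaps Ddx17 on the other strand, and the strand setting of the counting is not given in the sources used here.

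LMAN1 and LMAN2 are lectins that carry glycoproteins out of the ER. Lman2 stood at 132, 78.1, 83.9, 87.5 and 76.4 CPM in IgG and at 263, 160.4, 350.4, 633 and 232 CPM in Musashi IP, with no overlap and a log2 fold change of 1.71 ± 0.26. Lman1 was at 206, 131, 168, 194 and 160.5 CPM in IgG and 241, 154, 297, 468 and 221 in Musashi IP (0.60 ± 0.16), with overlap. Lman1 has the most motif matches of any member, at 14, and a lower recovery than Lman2 in 5 of 5 lysates. It lost its call without lysate 5 (0.60) or 7 (0.57) and with neither lysate nor sex in the model (0.68), but kept it with sex in place of the lysate (0.64).

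Among the SNAREs, Gosr2, which acts between the ER and the cis-Golgi, went from 105, 69.5, 80.3, 86.2 and 75.0 CPM in IgG to 315, 192, 455, 935 and 334 CPM in Musashi IP (2.22 ± 0.27). Gosr1, which acts within the Golgi stack, went from 47.8, 40.1, 51.5, 45.0 and 47.2 to 90.2, 86.9, 170.4, 311 and 131 CPM (1.60 ± 0.24). Sec22b, on ER-derived vesicles, went from 135, 72.0, 94.6, 84.8 and 89.3 to 247, 157, 304, 537 and 222 CPM (1.53 ± 0.23). For each of these 3 mRNAs every Musashi IP library was above every IgG library. Bet1, a SNARE on COPII vesicles, did not pass (0.39 ± 0.19): its ratios were -0.14, 0.12, 0.57, 1.24 and 0.13, above 1 in lysate 6 and below 0 in lysate 2.

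**Figure D2:**
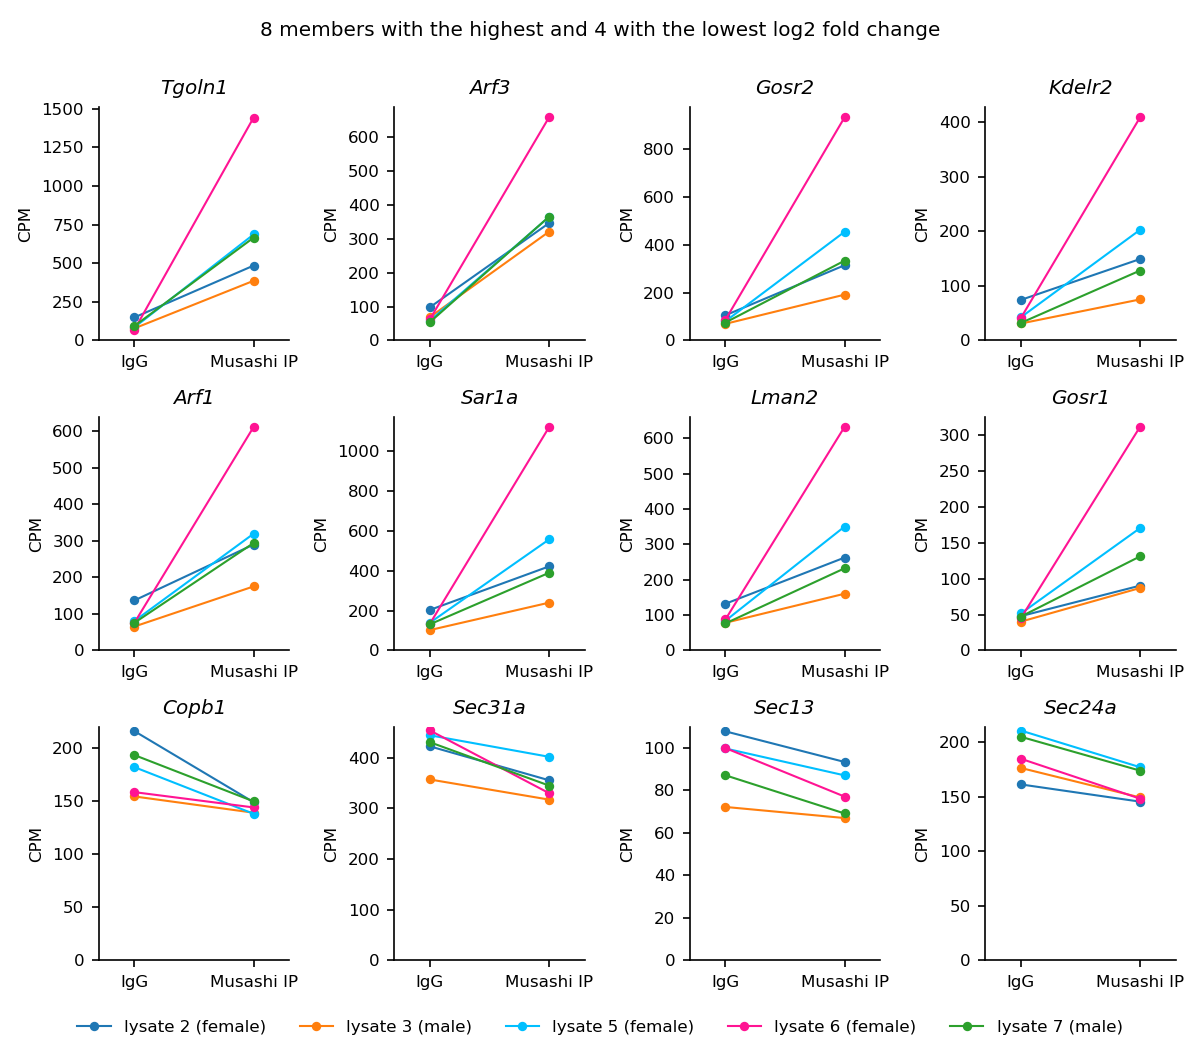
CPM (y axis, from 0) in the IgG and Musashi IP library of each lysate, joined by a line, for the 8 members with the highest and the 4 with the lowest log2 fold change. All lines rise in the upper 8 panels, most steeply for lysate 6 (1442 CPM for Tgoln1), and all fall in the bottom row.

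SAR1A and SAR1B are close copies of the GTPase that starts COPII assembly, and their mRNAs were recovered differently. Sar1a went from 204, 102, 139, 134 and 131 CPM in IgG to 422, 240.1, 558, 1122 and 390.3 CPM in Musashi IP (1.77 ± 0.26), with no overlap. Sar1b was at 22.2, 21.9, 22.8, 21.1 and 26.5 CPM in IgG and 22.7, 22.7, 21.5, 21.8 and 23.6 CPM in Musashi IP (-0.03 ± 0.10), so its groups overlapped throughout. The ratio of Sar1a exceeded that of Sar1b in 5 of 5 lysates, by 1.81 ± 0.80 on the log2 scale (SD). Neither shares a 50-base word with another annotated gene.

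Of the structural COPII subunits only Sec31a was called, and Sec24c lay furthest above 0. The inner coat subunits were at -0.19 ± 0.08 for Sec23a, which was lower in 5 of 5 lysates and not called, and -0.08 ± 0.09 for Sec23b. Sec24a, one of 4 cargo-binding SEC24 forms, stood at 161, 176, 210.4, 185 and 205 CPM in IgG and 145, 149, 177, 148 and 174 in Musashi IP (-0.24 ± 0.08, not called). Sec24d was at -0.23, Sec24b at 0.03 and Sec24c at 0.29, none of them called, although Sec24c was above 0 in 5 of 5 lysates. The ratio of Sec24c exceeded those of Sec24a, Sec24b and Sec24d in 5 of 5 lysates each, by 0.53 ± 0.23, 0.26 ± 0.19 and 0.52 ± 0.27 (SD).

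The outer coat was on the low side. Sec13 had 108, 72.2, 99.7, 99.9 and 87.1 CPM in IgG and 93.3, 67.0, 87.0, 77.1 and 69.1 in Musashi IP (-0.24 ± 0.09, not called), lower in each lysate but with overlapping groups. Sec31a had 422, 357, 444, 454 and 431 CPM in IgG and 355, 317, 402, 330.0 and 345 in Musashi IP (-0.27 ± 0.08), and was called lower although the groups overlapped. Sec31a lost that call without lysate 2 (-0.27), 5 (-0.25) or 7 (-0.33) and without the lysate block, whether sex was in the model (-0.27) or not (-0.27). Sec16a, the scaffold of ER exit sites, was called higher at only 0.27 ± 0.08. It lost the call without lysate 2 (0.27), 3 (0.23), 5 (0.32) or 7 (0.18). The call was also lost without the lysate block, with sex in the model (0.28) or not (0.28). DESeq2 (0.25), DESeq2 size factors (0.25) and library totals (0.096) lost it too. So did the 2 CPM filter (0.18), protein-coding genes only (0.17) and the length and GC correction (0.01). Just outside the threshold were Sec24c and Sec24a.

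COPI is assembled from 7 subunits that are recruited together, yet their mRNAs were not recovered together. Copz1, the small zeta subunit, went from 68.3, 40.9, 45.9, 44.4 and 36.4 CPM in IgG to 129.7, 72.0, 161, 294 and 96.0 CPM in Musashi IP (1.53 ± 0.26), with no overlap. Its paralogue Copz2 was at 66.3, 32.0, 51.9, 64.2 and 28.9 CPM in IgG and 79.8, 29.9, 65.4, 82.3 and 31.6 in Musashi IP (0.20 ± 0.10, not called). The ratio of Copz1 exceeded that of Copz2 in 5 of 5 lysates, by 1.33 ± 0.66 (SD). Arcn1, the delta subunit, was higher at 0.87 ± 0.19, from 241 ± 29.5 to 466 ± 194 CPM, with overlap.

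None of the other COPI subunits was called higher. Copb1, the beta subunit, was called lower (-0.32 ± 0.09), at 216, 154, 182, 158 and 193 CPM in IgG and 149, 139, 138, 144 and 149 CPM in Musashi IP, and its groups did not overlap. Copb1 lost its call without lysate 2 (-0.26), 5 (-0.25) or 7 (-0.38) and without the lysate block, whether sex was in the model (-0.33) or not (-0.33). Copa (-0.23 ± 0.08) and Cope (-0.22 ± 0.11) did not pass. Copb2 (-0.02) and the gamma paralogues Copg1 (0.05) and Copg2 (0.02) were near 0, and their signs turn under other scalings or without single lysates. Copg2 overlaps Mest on the other strand.

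**Figure D3:**
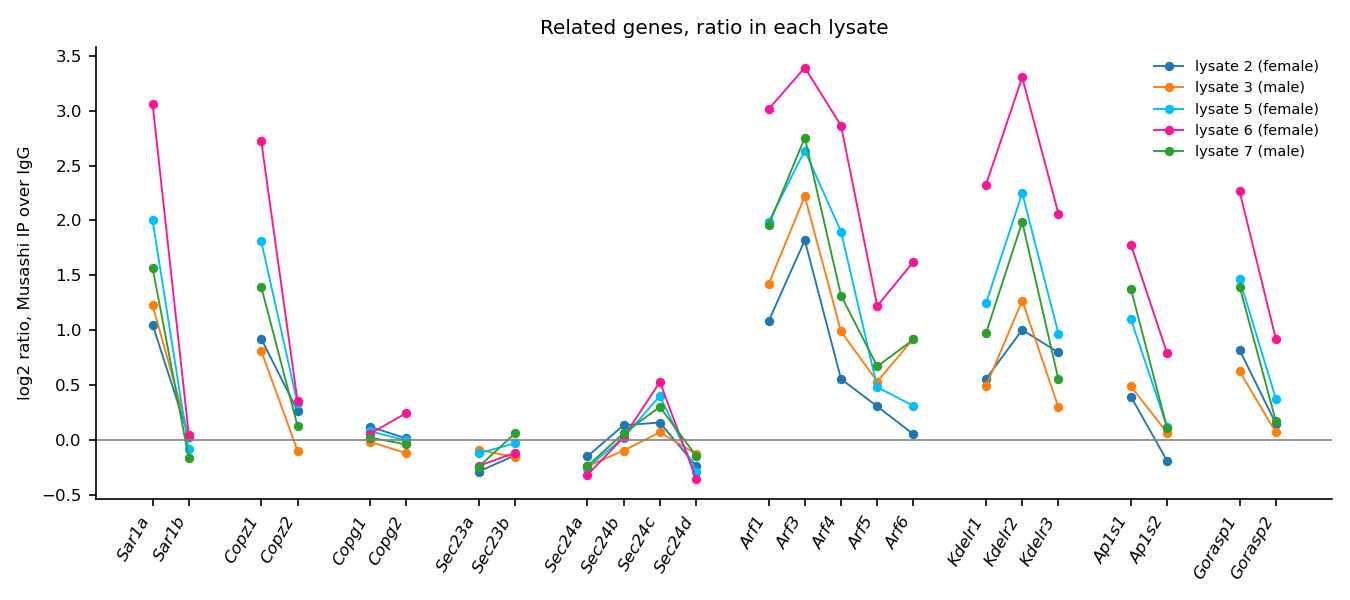
Log2 ratio of Musashi IP over IgG (y axis) in each of the 5 lysates for related members, joined within a gene set. In each lysate the line falls from Sar1a to Sar1b and from Copz1 to Copz2, by 1.81 and 1.33 on average, while Copg1 and Copg2 lie together near 0.

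Golgins are long coiled-coil tethers on Golgi membranes, and the GRASP proteins Gorasp1 and Gorasp2 link Golgi stacks. Gorasp1 was at 1.32 ± 0.22, with 51.8, 33.3, 43.3, 44.2 and 29.4 CPM in IgG and 91.7, 51.6, 119.7, 213 and 77.8 in Musashi IP, overlapping only through the lysate 2 IgG and lysate 3 Musashi IP libraries. Gorasp2 did not pass (0.34 ± 0.13), although its ratio was above 0 in 5 of 5 lysates. The ratio of Gorasp1 was the higher of the pair in 5 of 5 lysates, by 0.98 ± 0.35 (SD). Gorasp1 overlaps Wdr48 on the other strand.

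Golga2 encodes GM130, the cis-Golgi partner of GORASP1, and was higher at 0.89 ± 0.13, from 125 ± 23.5 to 237 ± 66.6 CPM with no overlap. Golga7, a small Golgi protein that acts with a palmitoyltransferase, was higher at 0.80 ± 0.17, also with no overlap. Golga3 was at 0.38 ± 0.10 and lost its call without lysate 3 (0.33), 5 (0.44) or 7 (0.28), with neither lysate nor sex in the model (0.39), with library totals (0.20) and after the length and GC correction (0.24). The large golgins Golgb1 (0.15 ± 0.09) and Golga4 (-0.03 ± 0.10) and the smaller Golga1 (-0.16 ± 0.08) and Golga5 (-0.18 ± 0.10) did not pass.

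The size of recovery followed the lysate. Lysate 6 had the highest ratio for all 26 members called higher, and the lowest ratio lay in lysate 2 for 16 of them and in lysate 3 for 10. Their median log2 ratios were 0.66, 0.61, 1.17, 2.16 and 1.21 in lysates 2, 3, 5, 6 and 7. Lysate 6 was also highest for 3541 of the 3804 genes called higher, whose median ratios were 0.45, 0.51, 0.87, 1.57 and 0.81, so that lysate 2 was lowest there and lysate 3 in the members. Without lysates 2 and 6, a setting added after the data were seen, 28 members were called higher and 4 lower.

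Of the 26 members called higher, 18 kept the call under all 16 alternatives. The 8 that lost it in at least 1 were Ap1g1, Arf5, Arf6, Gga2, Golga3, Kdelr3, Lman1 and Sec16a. The count of lower members moved more, from 2 to between 0 and 13, with 13 after the length and GC correction and 9 with library totals. Library totals moved the median of all genes from -0.07 to -0.24 and that of the members from 0.30 to 0.12.

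The lists of other genes of this pathway had 46 of 129 tested genes called higher and 2 lower, with a median of 0.17. Of all genes tested 18.5% were called higher, and of protein-coding genes 25.7%, and the counts of the lists are to be read against these shares. Proteins of the p24 family, which select cargo for vesicles, and of the ER-Golgi intermediate compartment had 9 of 12 higher and 0 lower (median 1.34). They included Tmed10 (2.26 ± 0.27), Tmed7 (1.89 ± 0.32), Tmed2 (1.78 ± 0.35) and Ergic1 (1.42 ± 0.22). COPII accessory factors had 6 of 14 higher, among them the cargo receptors Surf4 (2.47 ± 0.29), Cnih1 (2.31 ± 0.34) and Cnih4 (1.09 ± 0.18) and Mcfd2 (0.98 ± 0.21), the partner of LMAN1. ARF regulators and ARF-like GTPases had 5 of 14 higher, led by Arl1 (2.30 ± 0.29), a GTPase that recruits golgins to the trans-Golgi, and Arf2 (2.04 ± 0.24).

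Tethers were below both shares, with 5 higher and 1 lower of 36 (median 0.03). They included Golph3l (1.72 ± 0.31), Trappc5 (1.10 ± 0.19), Gcc1 (0.82 ± 0.13) and Uso1 (0.47 ± 0.12), the tether p115. Gcc1 overlaps Arf5 on the other strand. Other adaptor and clathrin subunits had 7 of 22 higher, with Ap3s2 (1.60 ± 0.21), Ap3m2 (1.50 ± 0.22), the clathrin light chain Cltb (1.36 ± 0.21) and Ap5s1 (0.84 ± 0.22). Other SNAREs and their regulators had 8 higher and 1 lower of 18, with Sec22c (1.64 ± 0.23), Ykt6 (1.50 ± 0.18), Bet1l (0.91 ± 0.19) and Napa (0.73 ± 0.15). Trans-Golgi cargo receptors and recycling proteins had 6 of 13 higher, with the sorting receptor Sort1 (0.998 ± 0.21), Vps26b (0.97 ± 0.21), the mannose 6-phosphate receptor M6pr (0.63 ± 0.18) and Snx6 (0.62 ± 0.19), which was higher in 4 of 5 lysates. These lists were drawn up with earlier results of these data known.

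The members differed in how much of the mRNA is 3' UTR, in the annotated transcript with the longest coding sequence. The 3' UTR made up a median of 64.0% of 3' UTR plus coding sequence in the 26 members called higher and 23.8% in the other 28. Over protein-coding genes tested the medians were 60.5% in 3645 called higher and 32.4% in 10435 others. The median coding length was 643.5 nt against 2457 nt in the members, and 1179 against 1551 nt over protein-coding genes. The median 3' UTR length was 1377.5 nt against 710.5 nt in the members, and 1865 against 751 nt over protein-coding genes.

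Ordered by 3' UTR share, the 18 members of lowest share (2.66 to 26.1%) had 3 called higher and 2 lower. The middle 18 (28.0 to 61.3%) had 7 higher, and the 18 of highest share (61.8 to 87.2%) had 16 higher. Of all protein-coding genes in the same 3 ranges of share, 5.97%, 26.6% and 52.0% were called higher. Spearman's rho between 3' UTR share and log2 fold change was 0.75 across the 54 members and 0.51 across 14080 protein-coding genes. Genes are not independent replicates, all values come from the same 10 libraries, and the share is the same for a gene whatever isoform the pituitary uses. Bet1 and Ap1s2, with shares of 73.5% and 84.3%, were the only members above 61.8% that were not called.

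**Figure D4:**
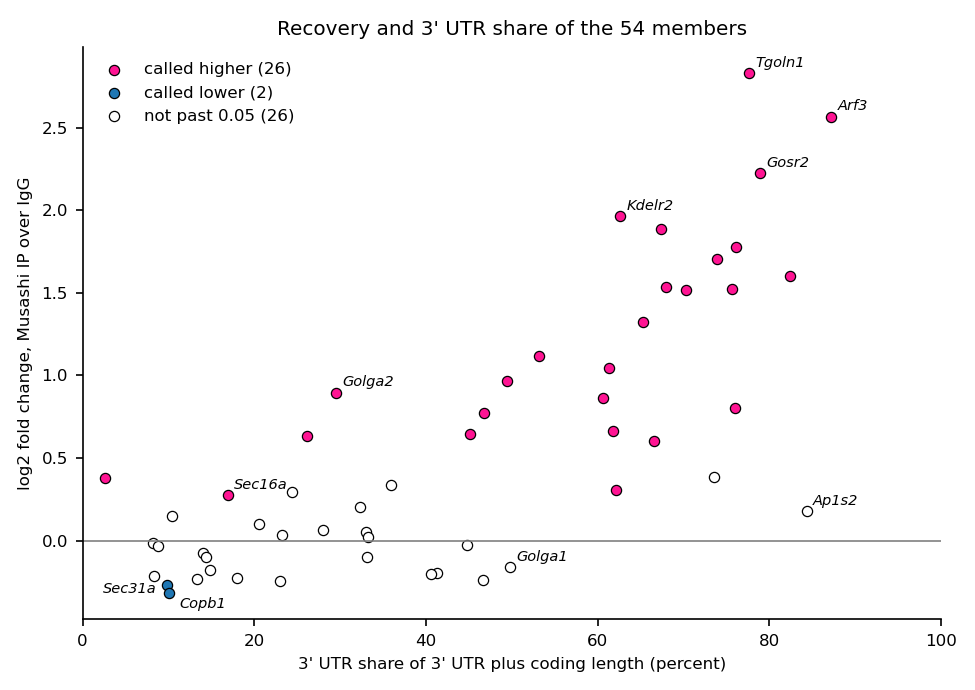
Log2 fold change of Musashi IP over IgG (y axis) against the share of 3' UTR in 3' UTR plus coding length (x axis, percent) for the 54 members, coloured by call. All members with a log2 fold change of 1.52 or more lie at 62.6% or more, and the uncalled Ap1s2 lies at 84.3%.

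Members called higher had a median of 2 motif matches in the 3' UTR and the others 1, and over protein-coding genes the medians were 3 and 1. Per kilobase of 3' UTR the medians were 1.31 and 1.57 in the members, and 1.64 and 1.20 over protein-coding genes. Spearman's rho between the number of matches and the log2 fold change was 0.23 across the members and 0.31 across protein-coding genes. Of the 16 members with no match, 7 were called higher (43.8%), including Kdelr2, Copz1 and Ap1s1. Of the 4667 protein-coding genes with no match, 608 were called higher (13.0%). In the other direction, Ap1s2 held 13 matches, Sec24a 7 and Sec23a 6 without being called. Golga3 has 0 matches in a 3' UTR of 122 nt in the transcript with the longest coding sequence and 8 in its longest annotated 3' UTR, of 3391 nt. With the longest annotated 3' UTR of each gene, 14 members had no match, 6 of them called higher, as were 450 of 3795 protein-coding genes with none (11.9%).

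Levels in IgG, per kilobase of annotated exon, spanned from 5.39 ± 0.675 CPM per kb for Golga7 to 58.6 ± 7.32 for Copa (SD, n = 5). Sec31a (53.5 ± 4.83), Golgb1 (51.5 ± 9.98) and Sec23a (50.1 ± 3.06) followed Copa, and these neighbours lay within each other's spread. The lowest per kilobase after Golga7 were Ap1s1 (6.43 ± 2.53), Arf6 (8.46 ± 2.65) and Arf5 (9.41 ± 4.16), also within their spread. This order depends on the annotated exon length. Before that division Golga7 averaged 36.3 CPM (6726 nt of exon) and Arf6 only 13.0 CPM (1534 nt). Tgoln1 was at 18.9 ± 6.27 CPM per kb, and the median of the set was 20.8. Spearman's rho between this level and the log2 fold change was -0.41 over the members and 0.03 over protein-coding genes. The IgG counts enter both quantities.

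The sexes were compared by 2 tests of contrasts that the choice of members did not use, although both draw on the same libraries as that choice. The first asked whether recovery differed between females (3 lysates) and males (2 lysates). No member and 0.00% of all genes tested passed (edgeR, 20550 genes). At an unadjusted p under 0.05 there were 0 members and 187 genes. The median female minus male difference of recovery was 0.11 over the members and 0.0096 over all genes tested, and this gap was not tested. The smallest unadjusted p among the members was 0.0672 for Kdelr3 (adjusted p = 1, edgeR), with log2 fold changes of 1.29 ± 0.25 in females and 0.44 ± 0.31 in males, a difference of 0.85 ± 0.40 (SE). Copz1 followed, with a difference of 0.71 ± 0.49 (unadjusted p = 0.183, adjusted p = 1, edgeR), and Copz2 with 0.30 ± 0.21 (unadjusted p = 0.194, adjusted p = 1, edgeR). For Tgoln1 the difference was 0.46 ± 0.66 (SE), so its SE was larger than the difference itself.

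The second test compared levels between female and male IgG libraries, without Musashi antibody. Of 20987 genes tested 4.50% differed, as did 2 of the 54 members. Copz2 was higher in females by 0.99 ± 0.19 on the log2 scale (SE; adjusted p = 0.0112, edgeR). Female libraries 2, 5 and 6 had 66.3, 51.9 and 64.2 CPM and male libraries 3 and 7 had 32.0 and 28.9, so the sexes did not overlap. Such a lack of overlap in IgG was seen for 29 of the 54 members and 33.4% of the 20550 genes tested for recovery, so it does not set Copz2 apart. The IgG libraries hold what came down with a control antibody, not the total RNA of the gland. Differences in that background, more cells that express a gene and more RNA per cell cannot be told apart in them. Fibroblast and mural markers, summed over 8 genes, moved the same way, with 1291, 596 and 661 CPM in the females and 291 and 404 in the males. Of these markers 1 of 8 passed as higher in females, all 8 were detected in IgG, and their part in the Copz2 difference was not tested.

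Ap1s2, which lies on the X chromosome, was lower in females by the same test (-0.78 ± 0.19, adjusted p = 0.0422, edgeR). It had 49.3, 62.8 and 47.6 CPM in the females and 77.3 and 104 in the males, with no overlap. Sec24d was next, at 0.59 ± 0.15 higher in females, and did not pass (adjusted p = 0.0550, edgeR). The calls rest on few lysates. The Copz2 call was lost when lysate 3 (1.07, adjusted p = 0.113 by edgeR) or 7 (0.93, 0.155) was left out, while its adjusted p over all alternatives ran from 0.000205 to 0.155. Ap1s2 lost its call without lysate 3 (-0.98, 0.104), 6 (-0.70, 0.121) or 7 (-0.54, 0.402), with a range from 0.00272 to 0.402. The other 52 members did not pass. Over all 54 members the median female minus male difference was 0.26, against a median of 0.0032 over the 20987 genes tested. Those genes are of any type, while the members are all protein-coding, and the gap between the medians was not tested.

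**Figure D5:**
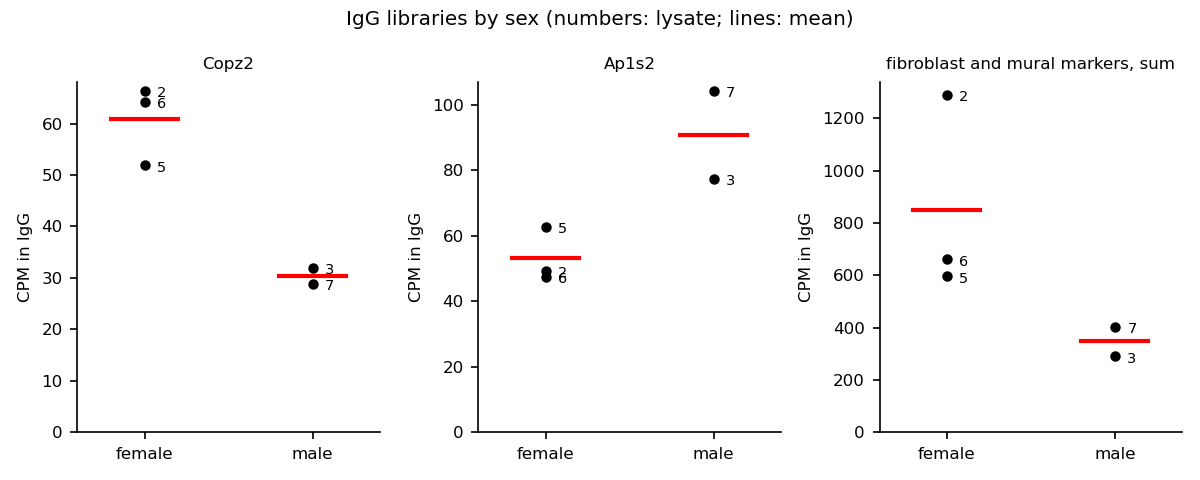
CPM in the 5 IgG libraries (y axis, from 0) of Copz2, of Ap1s2 and of the summed fibroblast and mural markers, by sex. Points are libraries numbered by lysate and red lines group means. The sexes do not overlap in any panel, and Ap1s2 alone is lower in females.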

How the data were processed

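The authors deposited whole-number read counts, not normalized, of 55416 Ensembl genes in 10 libraries. Per the submitters' processing notes, FastQC 0.11.8, Trimmomatic 0.39, STAR 2.7.1a and the build GRCm39 were among the tools and builds named. The counting program, its annotation and strand setting, and the handling of multi-mapping reads were not given in the sources used here. Of the 54 members, 23 overlap a gene on the other strand, 35 share no 50-base word with another annotated gene, and only Arf1 (10.5%) and Gga3 (6.02%) share over 5% of theirs.

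Tests ran on the counts in R 4.3.3 with edgeR 4.0.16 (filterByExpr, TMM factors, quasi-likelihood test, Benjamini-Hochberg at 0.05), fitted over all genes. Musashi IP was compared with IgG with the lysate as a block, since the labels' protocol says that each lysate was split. The sex difference of that effect used the same libraries, and female and male IgG libraries were compared unpaired. Deviations of same-numbered libraries correlated at 0.523, 0.679, 0.602, 0.186 and 0.778 in lysates 2, 3, 5, 6 and 7. In lysate 6 the IgG library correlated more with a Musashi IP library of another lysate (0.415), unlike in the other 4. The SE is the log2 fold change divided by the square root of F, and single-lysate ratios used a prior count of 2. The self-test on simulated counts ran before the fits. Alternatives were DESeq2 1.42.0, limma-voom (limma 3.58.1), no block (neither lysate nor sex), sex in place of the block, other scalings and filters, protein-coding genes only, a length and GC correction, and each lysate left out.

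Symbols, 3' UTRs and motifs came from GENCODE M21 (GRCm38), matched by gene ID for 94.1% of genes. The transcript of a gene was the complete protein-coding one with the longest coding sequence, and the longest annotated 3' UTR was the alternative. Library totals set the precision: 1 count was 0.150 CPM in the shallowest library before TMM factors, and counts without molecular identifiers are not independent molecules. No library pair was identical. The members, roles, lists and tests were chosen with earlier results of these data known. Values per library are given for the 8 members of highest and 4 of lowest log2 fold change and for related genes. Named beside them are up to 4 called genes of largest change per pathway list, and for the sexes the called members or the 3 of smallest unadjusted p. A planned likeness to Tgoln1 over 5 lysates was not computed, because 5 samples are too few for a correlation.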

Additional observations from a re-analysis of the deposited data

Results flagged for a closer look

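A library was singled out where its gap to the nearest other library exceeded 0.71 of the range of the 5 libraries of a group (Dixon's 95% critical value). Of 162 groups of 5 values over the members, 7 met this, and chance alone would give about 1 in 20. In Musashi IP, lysate 6 was far above the others for Tgoln1 (1442 CPM, others 386 to 686) and for Arf3 (659 CPM, others 321 to 366). In IgG, lysate 2 was far above the others for 5 members: Kdelr2 (74.3 CPM, others 31.0 to 42.5), Arf1 (137 CPM, others 65.4 to 80.5), Lman2 (132 CPM, others 76.4 to 87.5), Kdelr1 (50.9 CPM, others 28.6 to 34.8) and Arf5 (31.9 CPM, others 12.0 to 15.3). Among the IgG libraries, IgG 2 also held the highest sum of every marker list, hormone mRNAs included. The part of these markers in the members' levels was not tested.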

How the results depend on the processing

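The number of members called higher was 26 and stayed between 19 and 28 under the alternatives run, with 19 without the lysate block, 23 with sex in place of the block (added after the data were seen) and 19 to 27 when 1 lysate was left out. The number called lower was 2. It became 0 without the replicate block, with sex in the model or not, or without a low-count filter, 1 with DESeq2, 4 with limma-voom, with DESeq2 size factors or without lysates 2 and 6, 7 with protein-coding genes only, 8 with a 2 CPM filter, 9 with library totals and 13 with the length and GC correction in the blocked fit. Leaving out 1 lysate gave 0 to 4. No member was called as differing in recovery between the sexes under any alternative run, the fit without the replicate block included (0). With 3 female and 2 male lysates a difference could have been missed. Members differing between female and male IgG libraries went from 2 to 4 with no low-count filter and to 0 to 3 when 1 lysate was left out. No paired analysis was possible for that comparison because each lysate has 1 sex.

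The log2 fold changes that changed sign belong to members that were not called, and Sec24c (0.29) was the furthest of them from 0. After the length and GC correction they were -0.17 for Ap3d1, -0.14 for Copg1, -0.17 for Copg2, -0.22 for Gga1, -0.055 for Golgb1, 0.15 for Sar1b, -0.26 for Sec24b and -0.011 for Sec24c. With library totals they were -0.076 for Ap3d1, -0.12 for Copg1, -0.16 for Copg2, -0.11 for Gga1, -0.025 for Golgb1 and -0.15 for Sec24b. With the 2 CPM filter they were -0.042 for Copg1, -0.076 for Copg2, -0.033 for Gga1 and -0.065 for Sec24b, and with protein-coding genes only -0.045, -0.079, -0.037 and -0.069. Without lysates 2 and 6 they were 0.0037 for Copb2, -0.051 for Copg2, -0.0013 for Gga1 and 0.015 for Golga4. Leaving out 1 lysate gave ranges of -0.11 to 0.058 for Copb2, -0.019 to 0.0998 for Copg1, -0.035 to 0.079 for Copg2, -0.048 to 0.15 for Gga1, -0.15 to 0.047 for Golga4, -0.13 to 0.042 for Sar1b and -0.048 to 0.085 for Sec24b. The causes were not tested.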
